A study of Mus musculus with 20 samples.

Results

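Sox17-alone sites are places in the genome of mouse embryonic stem (ES) cells where induced Sox17 gave a peak in both of its libraries and no other tagged Sox protein gave one. They were found by pooling the strongest peaks of each of the 8 Sox lists of ES cells, as many from each as the shortest list holds, and chaining midpoints that lay within 200 bp, which gave 23796 sites, called union sites here. A library counted as bound where the midpoint of any of its peaks lay within 200 bp of a site. By this rule 447 of the 23796 sites were bound in Sox17 libraries A and B and in none of the other 6 Sox libraries. Another 2231 sites were bound in both Sox17 libraries and in at least 1 of the other 6, and these Sox17-shared sites served for comparison. Requiring only 1 of the Sox17 libraries would have given 1735 sites without replicate A and 1314 without replicate B.

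The ES lines were KH2 cells, a line built for transgenes switched on by doxycycline, and doxycycline at 1 µg/ml was given to all of them to switch on a V5-tagged Sox17, Sox17EK, Sox2KE or Sox2. Sox17EK and Sox2KE are the forms in which a glutamate and a lysine that differ between the wild-type proteins are exchanged. Each protein came from its own line, so protein and line cannot be told apart, and the labels do not say how many clones stood behind a line. Undifferentiated ES cells make Sox2 and Oct4 of their own, and untagged Sox2 was not measured. F9 cells, a line of embryonal carcinoma, were used after 1 µM retinoic acid (F9+RA), which drives F9 cells towards primitive endoderm, and untreated. Besides the 8 Sox libraries (2 per protein), 10 libraries took no part in the rule. They were 7 Oct4 libraries of the ES lines (1 of the Sox17 line and 2 of each of the other 3 lines), and 1 each of Sox17 in F9+RA cells, Oct4 in F9+RA cells and Oct4 in F9 cells. Antibodies against both Sox17 and V5 are named for Sox17 in ES cells, for the other ES Sox libraries V5 alone, for the Oct4 libraries of ES cells Oct4 and V5, and for the F9 libraries Sox17 or Oct4 alone.

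Sox17 and Sox2 are transcription factors of the HMG-box family, which bend DNA at short A/T-rich sites and often bind next to the POU factor Oct4 (Pou5f1). Sox2 with Oct4 keeps the pluripotency programme of ES cells running. Sox17 marks and drives primitive endoderm, the layer that gives rise to yolk sac endoderm, and mouse studies describe its pairing with Oct4 on a form of the joint Sox-Oct site in which the recognition sequences lie closer together. F9 cells treated with RA make their own Sox17, so the F9+RA library shows untagged Sox17 in an endoderm-like cell.

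The deposited lists give, for each peak, an interval and a score set by the peak caller, and reach 84196 peaks in the longest list, Oct4 of F9+RA cells. Scores begin at about 50 in every list. They are the authors' values, and their scale differs between lists, so they rank peaks within a list only. Read depth was unknown. The Sox17 ES lists are the shortest, with 10301 peaks in replicate A and fewer in replicate B, against 23924 to 71693 in the other ES Sox lists, and their intervals the widest, with medians of 970 and 873 bp. All intervals given for shares are exact 95% binomial ones (Clopper-Pearson) and cover counting error only.

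The members were chosen by their Sox17 peaks, which had much the same scores as those of Sox17-shared sites and are described here with no test. In replicate A the members' Sox17 scores had a median of 123 (quartiles 82.2 and 222) and ran from 50.7 to 3100. At Sox17-shared sites the replicate A median was 124. In replicate B the members' median was 96.7 (quartiles 68.4 and 155, highest 1391), against 89.9 at Sox17-shared sites. The middle of the range was thus alike in both kinds of sites.

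Absence of the other proteins depended on midpoints, and peaks of these lists are wide. An interval of another ES Sox list lay over 116 of the 447 members even though its midpoint was farther than 200 bp away. Most of these came from 1 library, since Sox2KE replicate B, the longest ES Sox list, had an interval over 111 members, Sox2KE replicate A over 16, each Sox2 replicate over 10, and Sox17EK over 8 and 1. The other 331 members lay under no interval of another Sox protein. The nearest midpoint of any of the 6 other lists was at a median distance of 2504 bp (quartiles 435 and 8782 bp), against 5061.2 bp for the same sites moved by 10 kb to either side. A distance of at most 1000 bp was found for 34.9% of the members, and one over 10000 bp for 22.4%.

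**Figure D1:**
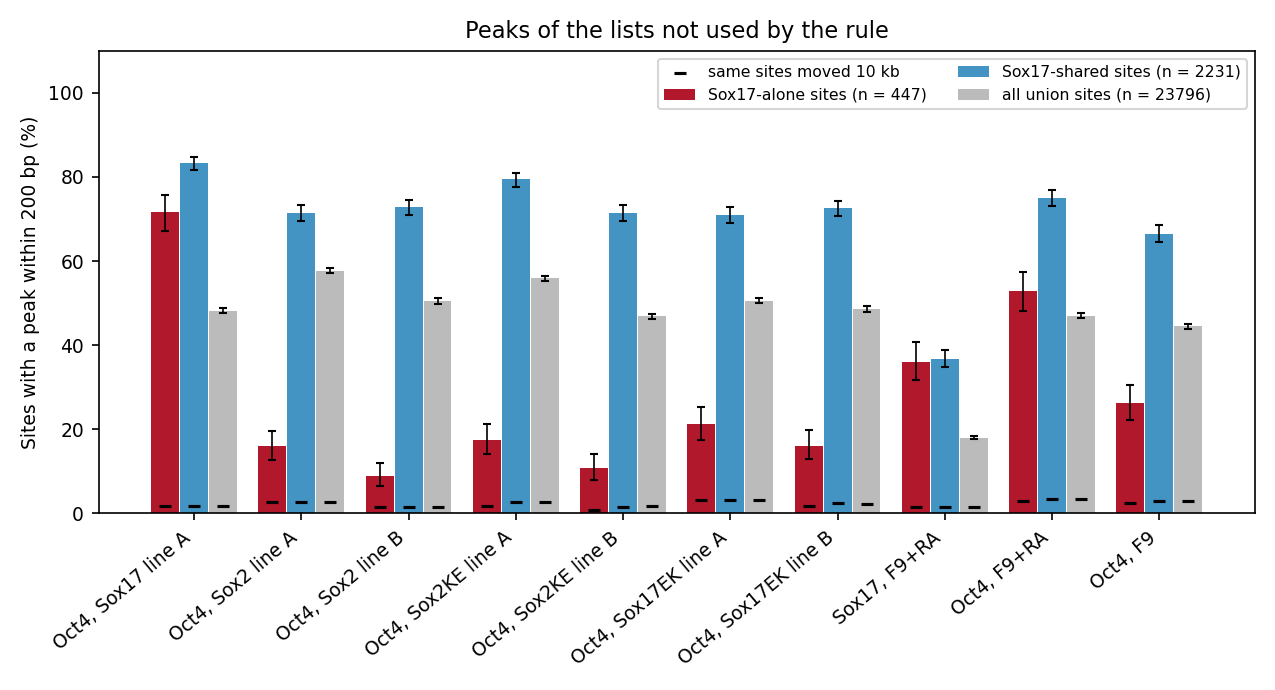
Share of sites (y axis, %) with a peak within 200 bp in each of the 10 libraries that the rule did not use (x axis), for Sox17-alone sites, Sox17-shared sites and all union sites, with exact 95% intervals as error bars and short black lines for the same sites moved by 10 kb. Oct4 of the Sox17 line stands at 71.6% of Sox17-alone sites and Oct4 of the other ES lines at 8.95% to 21.3%, while Sox17 of F9+RA cells has nearly equal shares at Sox17-alone (36.0%) and Sox17-shared sites (36.8%).

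Oct4 lay at most Sox17-alone sites in the Sox17 line, and at a minority of them in each library of the other ES lines. In the Oct4 library of the Sox17 line 320 of the 447 sites had a peak, or 71.6% (67.2 to 75.7), while 48.2% of all union sites had one. Of the Sox17EK line, Oct4 lay at 21.3% (17.5 to 25.3) and 16.1% (12.8 to 19.8) of the members in replicates A and B, below the 50.6% and 48.5% of all union sites. For the Sox2KE line it lay at 17.4% (14 to 21.3) and 10.7% (8.02 to 14), below 55.9% and 46.9%. In the Sox2 line it lay at 15.9% (12.6 to 19.6) and 8.95% (6.47 to 12.0), below 57.7% and 50.4%. The same members moved by 10 kb met these 7 Oct4 lists in 0.895% to 3.13% of cases, so that even the lowest of these shares was above its own moved value of 1.57%. Taken over all 6 libraries of the other 3 lines, 185 members (41.4%, 36.8 to 46.1) had an Oct4 peak in at least 1, against 97.0% of Sox17-shared sites and 84.7% of all union sites.

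The Sox17 line stood 56.5 points above the mean of the other ES lines at these sites, with 71.6% against 15.1% ± 4.51 (SD, n = 6 libraries). An exact permutation test of 1 library against 6, two-sided, cannot go below p = 0.143, which is the value it gave (adjusted over 2 tests, also 0.143), so that it says nothing for or against the gap. At Sox17-shared sites the same comparison was 83.2% against 73.1% ± 3.17 (SD, n = 6), a gap of 10.1 points. Sites were chosen for lacking a Sox peak in the other 3 lines, and the part of that choice in the gap was not tested. Moreover, the Oct4 libraries name V5 beside Oct4, so that peaks of tagged Sox17 and of Oct4 in the Sox17 line cannot be told apart. The size of the gap depends on both Sox17 libraries having been required. It was 18 points without Sox17 replicate A (Sox17 line 30.7%, other lines 12.6%) and 26.8 points without Sox17 replicate B (49.4% and 22.6%).

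Sox17-alone sites met Oct4 less often than Sox17-shared sites in each of the 7 Oct4 libraries of ES cells. Over these libraries the shares were 23.1% ± 21.8 at Sox17-alone sites and 74.5% ± 4.80 at Sox17-shared sites (SD, n = 7). The difference of -51.4 points (from -63.8 to -11.6, lower in 7 of 7 libraries) had an exact two-sided paired permutation p of 0.0156, the smallest that 7 libraries allow, and an adjusted p of 0.0312 over 2 tests. This p is no independent support, because 6 of the 7 libraries come from the lines whose lack of a Sox peak chose the members, and that choice largely fixes the sign there. In the Sox17 line, where the choice does not act in this way, the difference was smallest, with 71.6% against 83.2% (81.6 to 84.7). Among Sox17 peaks with scores of 100 or more the Sox17 line had nearly equal shares, with 85.2% at 183 Sox17-alone and 84.9% at 800 Sox17-shared sites. The adjusted p of the paired permutation test was then 0.0625. Leaving out any 1 of the 6 Oct4 libraries of the other lines also gave an adjusted p of 0.0625, since 6 libraries cannot go below an unadjusted p of 0.0312, which the adjustment over 2 tests doubles. Without the Oct4 library of the Sox17 line only this test remained, and its p of 0.0312 stood unchanged.

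The number of Oct4 lists of ES cells with a peak differed in the same way between these sites. Oct4 peaks of the Sox17 line and of no other ES line lay at 183 members, or 40.9% (36.3 to 45.7), against 31 Sox17-shared sites (1.39%) and 2.32% of all union sites. A further 79 members (17.7%) had no Oct4 peak in any of the 7 lists by midpoint, though some of them lay under Oct4 intervals, and 3 (0.671%) had one in all 7. Oct4 in other ES lines only was found at 48 members (10.7%), against 15.2% of Sox17-shared sites and 38.8% of all union sites. For none and for all 7 lists the shares of all union sites were not counted. At Sox17-shared sites 774 (34.7%) had Oct4 in all 7 lists and 37 (1.66%) in none. Members were chosen for a Sox peak in the Sox17 line and none in the other lines, and these Oct4 libraries name V5 too. Peaks in the Sox17 line only were thus favoured at members in advance, and the part of that choice was not tested.

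**Figure D2:**
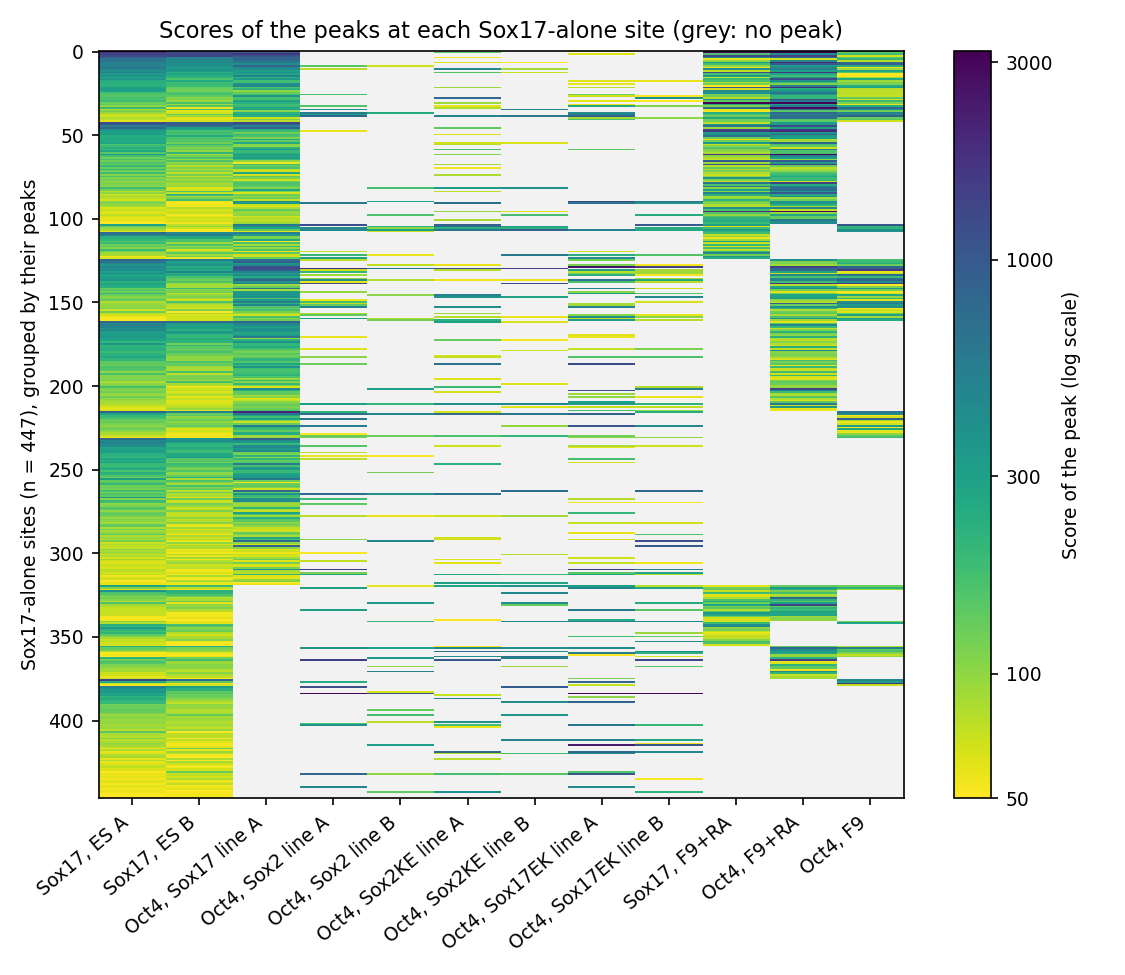
Score of the peak (colour, log scale) at each of the 447 Sox17-alone sites (rows) in both Sox17 ES lists and in the 10 lists that the rule did not use (columns), with grey where no midpoint lay within 200 bp and rows grouped by presence in Oct4 of the Sox17 line, Sox17 F9+RA, Oct4 F9+RA and Oct4 F9. The 320 rows with Oct4 of the Sox17 line form the upper block, and the columns of the other ES lines are mostly grey throughout.

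Oct4 peaks of the Sox17 line that matched a member were about as near to it as those at Sox17-shared sites, but weaker. Their midpoints were at a median distance of 52.5 bp from the member and within 100 bp in 74.1% of cases, against 52.5 bp and 77.9% at Sox17-shared sites. Only peaks with a midpoint within 200 bp enter these values, so the rule itself bounds the distances. This library names V5 beside Oct4, so peaks of tagged Sox17 and of Oct4 cannot be told apart here either. The Oct4 score had a median of 171 (quartiles 107 and 334) at the 320 members, against 360 (quartiles 195 and 653) at 1856 Sox17-shared sites and 108 over the whole list. The peaks at Sox17-shared sites were above the list's median in 92.3% of cases and those at members in 74.1%.

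Members under an interval of another Sox list differed from the rest in their Oct4 peaks by midpoint. Among the 331 members under no such interval, Oct4 lay at 79.5% (74.7 to 83.7) in the Sox17 line and at 1.51% to 16.9% in the other 6 libraries. Among the 116 under one, the Sox17 line had 49.1% (39.7 to 58.6) and the others 29.3% to 37.1%. The lower share of the Sox17 line among the 116 holds for midpoints only, since its Oct4 intervals lay over most members of both sets. Sox intervals of the other lines made this split, and the Oct4 libraries of those lines name V5 too. Higher shares of the other lines were thus favoured in advance among the 116, and the part of that choice was not tested. At the edge of the rule, the 62 members whose nearest other Sox midpoint lay over 200 and up to 300 bp away had Oct4 of the Sox17 line at 56.5%, and of the other lines at 29.0% to 40.3%. Sites just outside it, with a midpoint over 100 and up to 200 bp away (146 sites), had 69.9% and 43.8% to 54.8%.

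**Figure D3:**
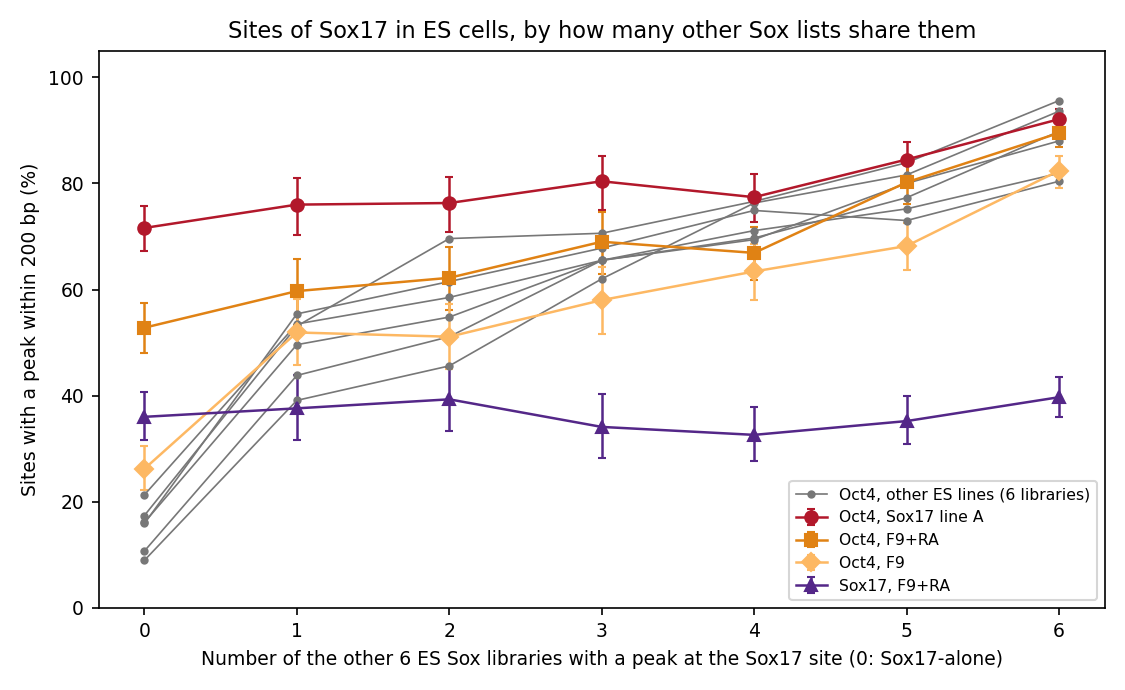
Share of Sox17 ES sites with a peak within 200 bp (y axis, %), by how many of the other 6 ES Sox libraries also had a peak (x axis, where 0 stands for the 447 Sox17-alone sites), for Oct4 of the Sox17 line, Oct4 of the other ES lines (6 grey lines), and the F9 libraries, with exact 95% intervals. Oct4 of the other ES lines is at 8.95% to 21.3% for 0 and at 80.4% to 95.6% for 6, whereas Sox17 F9+RA stays between 32.6% and 39.7%. The bins count Sox peaks of those other ES lines, which favours the rise of their Oct4 libraries in advance.

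Sox17 of F9+RA cells, the untagged protein in another cell type, lay at a large minority of Sox17-alone sites with a share close to that of Sox17-shared sites. It had a peak at 161 of the 447 members, or 36.0% (31.6 to 40.7), where 18% of all union sites and 1.57% of the moved members had one. At Sox17-shared sites the share was 36.8% (34.8 to 38.8). This likeness depends on how sites were called. At Sox17-alone and Sox17-shared sites the shares were 17.3% and 32.5% without Sox17 replicate A, and 27.2% and 34.3% without Sox17 replicate B. They were 37.4% and 46.8% with midpoints within 400 bp, 34.3% and 43.1% by interval over the site, and 45.3% and 36.4% from the 1000 strongest peaks. Sorted by how many of the 6 other Sox libraries shared a Sox17 site, it was 36.0% for 0, 37.6% for 1, 39.3% for 2, 34.1% for 3, 32.6% for 4, 35.2% for 5 and 39.7% for 6, with intervals that all overlap. Oct4 of the other ES lines increased over the same bins, in the Sox2 line B library, for example, from 8.95% for 0 to 39.1% for 1 and 93.6% for 6. The bins count Sox peaks of these same lines, and their Oct4 libraries name V5 too. That rise was therefore favoured in advance, and the part of the binning in it was not tested. Over these bins the Oct4 share of the Sox17 line lay between 71.6% and 92.1%.

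Oct4 of F9+RA cells lay at 236 members, or 52.8% (48.1 to 57.5), and Oct4 of untreated F9 cells at 117, or 26.2% (22.2 to 30.5). Among all union sites these lists had 47.0% and 44.5%, and at Sox17-shared sites 75% (73.2 to 76.8) and 66.5% (64.5 to 68.5). A peak of Oct4 in F9+RA cells without one in F9 cells was found at 146 members (32.7%, 28.3 to 37.2) and the reverse at 27 (6.04%, 4.02 to 8.67). At Sox17-shared sites these were 17.6% and 9.10%, and at all union sites 14% and 11.5%. Without Sox17 replicate A the members' shares were 27.2% in F9+RA and 16.0% in F9 cells. Where only the strongest peaks of every ES Sox list, those of Sox17 included and as many from each as the shortest holds, decided presence, they were 59.9% and 41.0%. The F9+RA list is the longer one, with 84196 against 64582 peaks. With both cut to 39768 peaks the members' shares were 40.9% in F9+RA and 18.3% in F9 cells, and those of Sox17-shared sites 67.1% and 61.1%. With 1 library per condition these values compare libraries and have no replicate check.

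Members with Sox17 in F9+RA cells had Oct4 there more often than members without it. Of the 161 members with a Sox17 F9+RA peak 125, or 77.6% (70.4 to 83.8), also had Oct4 in F9+RA cells, against 111 of the 286 without one, or 38.8% (33.1 to 44.7). At Sox17-shared sites the same shares were 83.9% and 69.9%, and at all union sites 71.7% and 41.5%, so the contrast was not particular to the members. Oct4 of untreated F9 cells lay at 32.9% (25.7 to 40.8) of the members with Sox17 in F9+RA cells, and at 22.4% (17.7 to 27.7) of those without. Members with Oct4 in the Sox17 ES line had Oct4 in F9+RA cells in 60.9% (55.4 to 66.3) of cases, and members without it in 32.3% (24.3 to 41.2), against 70.4% and 25.2% at all union sites. For Sox17 of F9+RA cells these shares were 39.1% (33.7 to 44.6) and 28.3% (20.7 to 37.0), with overlapping intervals, and 24.3% and 12.2% at all union sites. At 104 members Oct4 of the Sox17 line, Sox17 F9+RA and Oct4 F9+RA all had a peak, 61 of them without Oct4 in F9 cells and 43 with it. These were 13.6% and 9.62% of the members, against 5.24% and 22.2% of Sox17-shared sites. For all union sites these combinations were not counted.

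The peaks of F9+RA cells at members were strong for their lists. Sox17 F9+RA scores had a median of 131 (quartiles 83.7 and 277) at members and 141 at Sox17-shared sites, against 67.8 over the list. Oct4 F9+RA scores had a median of 202 at members and 368 at Sox17-shared sites, against 94.6 over the list. Oct4 F9 scores had medians of 148 and 362, against 119. Only sites with a peak enter these medians.

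**Figure D4:**
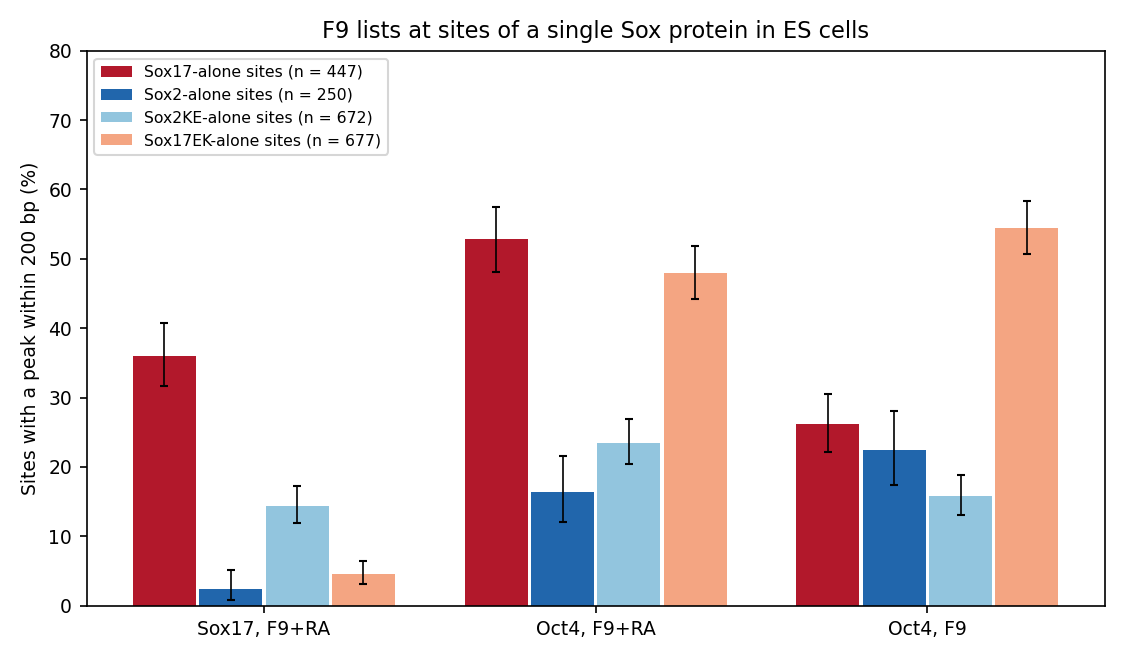
Share of sites with a peak within 200 bp (y axis, %) in the 3 F9 libraries (x axis), for sites bound in ES cells by both libraries of 1 Sox protein and by none of the other 6, with exact 95% intervals. Sox17 F9+RA lies at 36.0% of Sox17-alone sites and at 2.40% to 14.4% of the sites of the other 3 proteins, and Oct4 F9 is highest at Sox17EK-alone sites (54.5%).

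Sites of the other single proteins were found by the same rule and set beside Sox17-alone sites. There were 677 sites of Sox17EK alone, 672 of Sox2KE alone and 250 of Sox2 alone. Sox17 of F9+RA cells lay at 36.0% of Sox17-alone sites, against 4.58% (3.13 to 6.44) for Sox17EK, 14.4% (11.9 to 17.3) for Sox2KE and 2.40% (0.886 to 5.15) for Sox2. The Sox17-alone interval of 31.6 to 40.7 overlaps none of these. Without Sox17 replicate A, however, the Sox17-alone share was 17.3%, at the upper end of the Sox2KE-alone interval, and without Sox17 replicate B it was 27.2%. The Sox17 libraries of ES cells and the F9+RA library both name the Sox17 antibody and the libraries of the other proteins do not, so antibody and protein cannot be told apart in this comparison. The rule also required Sox17 peaks of ES cells at Sox17-alone sites and their absence at the sites of the other proteins. This choice favours a higher Sox17 share at Sox17-alone sites in advance, and its part in the gap was not tested.

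In their own lines all 4 classes had peaks of the Oct4 libraries at more sites than not, where all union sites had 46.9% to 57.7%. The share was 71.6% for Sox17-alone sites in the Sox17 line, and in the lines of the other proteins 73.4% and 77.5% of Sox17EK-alone, 76.0% and 58.3% of Sox2KE-alone, and 78.0% and 70.4% of Sox2-alone sites. The Sox2KE line B value of 58.3% (54.5 to 62.1) lay below the Sox17-alone interval, and the other 5 intervals overlapped it. The Oct4 libraries of ES cells name V5 beside Oct4, and each class was chosen for its tagged protein in that line. Peaks of Oct4 and of the tagged protein therefore cannot be told apart in any of these own-line shares. In F9+RA cells Oct4 lay at 52.8% of Sox17-alone sites, 48.0% (44.2 to 51.8) of Sox17EK-alone, 23.5% (20.4 to 26.9) of Sox2KE-alone and 16.4% (12.0 to 21.6) of Sox2-alone sites. In F9 cells it lay at 26.2%, 54.5% (50.7 to 58.3), 15.8% (13.1 to 18.8) and 22.4% (17.4 to 28.1) in the same order. Oct4 in F9+RA cells without Oct4 in F9 cells was found at 32.7% of Sox17-alone sites, against 11.2% (8.95 to 13.8), 14% (11.5 to 16.8) and 5.20% (2.80 to 8.73). These classes were compared by counting intervals over sites, with 1 library per F9 list and no test over samples.

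**Figure D5:**
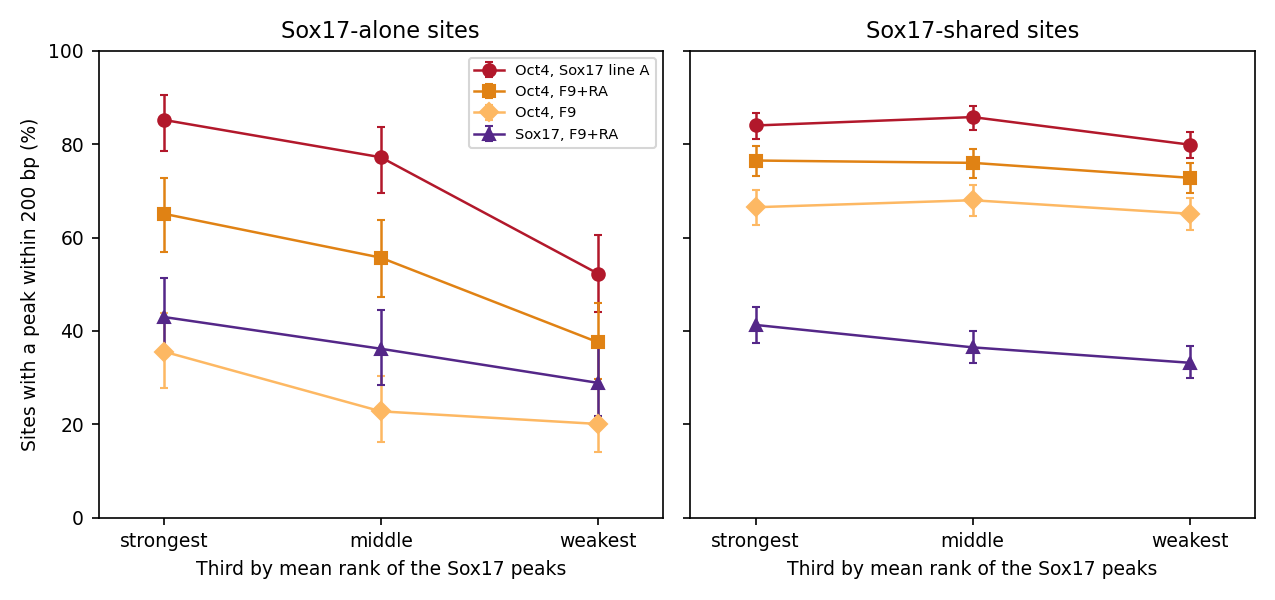
Share of sites with a peak within 200 bp (y axis, %) in 4 libraries, for Sox17-alone sites (left) and Sox17-shared sites (right) divided at the same ranks into the strongest, middle and weakest by the mean rank of their Sox17 ES peaks (x axis), with exact 95% intervals. Oct4 of the Sox17 line stands at 85.2%, 77.2% and 52.3% of Sox17-alone sites, against 84.0%, 85.8% and 79.9% of Sox17-shared sites.

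Stronger Sox17-alone sites met the other lists more often. The members were divided by the mean rank of their Sox17 scores into sets of 149. From the strongest set to the weakest, Oct4 of the Sox17 line lay at 85.2%, 77.2% and 52.3%, Oct4 of F9+RA cells at 65.1%, 55.7% and 37.6%, Oct4 of F9 cells at 35.6%, 22.8% and 20.1%, and Sox17 of F9+RA cells at 43.0%, 36.2% and 28.9%. Oct4 of the other ES lines did not follow: the shares were 16.8%, 15.4% and 15.4% in the Sox2 line A library, and 11.4%, 15.4% and 21.5% in the Sox17EK line B library. Sox17-shared sites between the same ranks had 84.0%, 85.8% and 79.9% with Oct4 of the Sox17 line, and 76.5%, 76.0% and 72.8% with Oct4 of F9+RA cells. In the strongest set the share of Oct4 of the Sox17 line was therefore close to that of Sox17-shared sites, at 85.2% and 84.0%.

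The 10 strongest members by mean rank show these patterns at single regions, given by position in build mm9 with their scores. The strongest, on chromosome 11 at 43290720 to 43291951, had 3100 and 1312 for Sox17 and 3100 for Oct4 of the Sox17 line. The only other ES library with Oct4 there was Sox17EK line A, at 61.8. The next, on chromosome 8 at 129139296 to 129140464, had 1765 and 1270 for Sox17, 967 for Oct4 of the Sox17 line and 141 for Oct4 of Sox2KE line A. Another Sox midpoint was no nearer than 3081 bp to the first and 5044 bp to the second, and Sox17 of F9+RA cells scored 3100 and 2612 at them. Oct4 scored 2290 in F9+RA and 355 in F9 cells at the first, and 3122 in F9+RA and 143 in F9 cells at the second.

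On chromosome 7, at 106574678 to 106575871, Sox17 scored 1440 and 1328, Oct4 of the Sox17 line 1662, and Oct4 of Sox17EK line A 61.4. The F9 lists held peaks there too, with 161 for Sox17 F9+RA, 446 for Oct4 F9+RA and 182 for Oct4 F9. On chromosome 8, at 117574891 to 117575975, Sox17 scored 1205 and 1391, Oct4 of the Sox17 line 1075, Sox17 F9+RA 1232, Oct4 F9+RA 1361 and Oct4 F9 66.2. No other Oct4 library of ES cells had a peak at that region, so Oct4 was seen there only in the Sox17 line and in the F9 lists.

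Other strong members lacked some of these peaks. Oct4 of the Sox17 line together with all 3 F9 lists, as at the regions above, was found at only 9.62% of all members. Oct4 of the Sox17 line with no F9 peak was found at 19.7%. On chromosome 6, at 89237853 to 89239510, Sox17 scored 1419 and 795, and the only matching peak was Oct4 F9 at 472. An interval of Oct4 of the Sox17 line and one of Sox17 F9+RA nevertheless lay over this site, with midpoints beyond 200 bp, and another Sox midpoint was 361 bp away. On chromosome 1, at 120899934 to 120901713, Sox17 scored 841 and 515 and Oct4 1999 in the Sox17 line. Here Oct4 was also found in Sox2 line A (217), Sox2KE line A (64.4), Sox17EK line B (244) and F9 cells (651), and no F9+RA list had a midpoint within 200 bp. Intervals of 8 of the 10 lists lay over this site, Sox17 F9+RA not among them, so some Oct4 lists lacked a peak by midpoint only. A member on chromosome 14, at 48167687 to 48168804, had 756 and 728 for Sox17 and 780 for Oct4 of the Sox17 line, but an interval of another Sox list lay over it and its nearest midpoint was 224 bp away. Oct4 of the Sox2KE line scored 297 and 64.6 and Oct4 of F9+RA cells 60.2 at the same place. On chromosome 4, at 134582455 to 134583971, Sox17 scored 808 and 595, and Oct4 scored 686 in the Sox17 line, 74.2 in Sox2 line A, 123 in Sox17EK line A, 381 in F9+RA and 177 in F9 cells, with no Sox17 peak in F9+RA cells.

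Among the 61 members with Oct4 of the Sox17 line and both F9+RA lists but no Oct4 in F9 cells, the 5 strongest were chosen by the same rank. On chromosome 9, at 21278686 to 21279954, Sox17 scored 1205 and 873, Oct4 of the Sox17 line 1308, Sox17 F9+RA 74.6 and Oct4 F9+RA 324. On chromosome 8, at 36451043 to 36452168, the Sox17 scores were 938 and 1065, the Oct4 score of the Sox17 line 930, and those of F9+RA cells 360 for Sox17 and 335 for Oct4. At neither region did another ES line have an Oct4 peak.

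On chromosome 6, at 29994416 to 29995370, Sox17 F9+RA scored 1306 and Oct4 F9+RA 1653. The ES scores there were 442 and 270 for Sox17 and 249 for Oct4 of the Sox17 line. Another region on that chromosome, at 73014930 to 73015996, lay 16923 bp from any other Sox midpoint. It scored 660 for Sox17 and 1221 for Oct4 after RA, and 556 and 691 for Sox17 and 506 for Oct4 in the Sox17 ES line. On chromosome 15, at 36414393 to 36415444, Sox17 scored 757 and 322 and Oct4 879 in the Sox17 line and 139 in Sox2KE line A, with 92.3 for Sox17 F9+RA and 300 for Oct4 F9+RA. In 4 of these 5 regions no other ES line had an Oct4 peak.

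At 10 members Sox17 was found in both cell types with no Oct4 midpoint within 200 bp. The strongest lay on chromosome 8 at 122751054 to 122752029, with Sox17 scores of 411 after RA in F9 cells and 238 and 170 in the ES libraries. On chromosome 2, at 180397660 to 180398888, these scores were 478, and 195 and 157. Intervals of Oct4 of the Sox17 line lay over both, so that Oct4 was absent there by midpoint only. Another, on the same chromosome at 18247317 to 18247897, had 125, and 216 and 120, and lay under no interval of Oct4 of the Sox17 line, and its nearest other Sox midpoint was 15999 bp away. The other 2 named by the rule, both on chromosome 11 (97048157 to 97050882 and 120095916 to 120096965), lay under intervals of another Sox list and of Oct4 of the Sox17 line. Intervals of all 9 Oct4 lists lay over the former and those of 3 over the latter, so that Oct4 was absent there too by midpoint only.

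At the other end, 3 members had Oct4 in all 7 ES libraries. On chromosome 1, at 37141627 to 37142812, Sox17 scored 363 and 130. Oct4 there scored 833 in the Sox17 line, 660 and 249 with Sox17EK, 55.2 and 57 with Sox2KE, 387 and 81.4 with Sox2, 512 in F9+RA and 829 in F9 cells. On chromosome 5, at 28397480 to 28398423, and on chromosome 17, at 35195850 to 35197023, the Sox17 scores were below the members' medians, with 80.9 and 67.3 at the one and 85.2 and 51.1 at the other. Oct4 scored 124 in the Sox17 line and 202 to 477 in the other lines at the first, and 140 and 259 to 878 at the second. Both of these lay under an interval of another Sox list.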

How the data were processed

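Chromatin immunoprecipitation and sequencing gave 20 samples, and peak lists of 18 of them were used, with 2 mock samples not analysed here. In the deposited lists, without header, each of 5 columns holds in turn the chromosome, start and end of a peak, its name with the MACS prefix and a number, used as a score because its scale is not stated (lowest values of 50.00 to 50.03 in all lists). The build is mm9 per the submitters' processing notes. For the caller's version, settings and control the sources used here give nothing, and depth was unknown. Starts were taken to count from 0 and are printed counting from 1. Midpoints were rounded down.

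Sites and presence followed the rule in the text, whole lists deciding presence. A named region spans both Sox17 peaks. Tests were exact permutations over libraries, adjusted over 2 tests by the Benjamini-Hochberg method. Nothing in the labels says that replicates were separately cultured, and the p-values then measure the spread between these samples only, which may be technical. The members, classes and comparisons were chosen with earlier results of these data known. Named regions were the 10 strongest members by mean rank in both Sox17 lists, and the 5 strongest of each of 4 kinds: with both F9+RA lists and Oct4 of the Sox17 line but not Oct4 F9, with Sox17 F9+RA and no Oct4, with no peak in the 10 other lists, and with Oct4 in all 7 ES lists. No genome or gene table of build mm9 was used here, so the planned motif search was not run and regions carry no sequence or gene name. The tools were SciPy 1.17.1, pandas 2.3.3 and NumPy 2.4.6 under Python 3.11.15.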

Additional observations from a re-analysis of the deposited data

How the results depend on the processing

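The paired difference between Sox17-alone and Sox17-shared sites in Oct4 of ES cells was negative under all 24 alternatives. It ran from -66.4 to -35.5 points, and from -58.0 to -43.6 where 1 library was left out. The adjusted p of its paired permutation test lay between 0.0312 and 0.0625. Neither the sign nor this p is independent support. Every alternative kept a choice of members that largely fixes the sign in the Oct4 libraries of the other lines. With Sox17 scores of 100 or more the difference was -50.8 points with an adjusted p of 0.0625. At these scores the Sox17 line, where the choice does not act in this way, had 85.2% at Sox17-alone and 84.9% at Sox17-shared sites. The excess of the Sox17 line ranged from 18 to 70.7 points over 23 alternatives, the highest with no interval of another Sox list over the site (added after the data were seen). The number of members was 172 from the 1000 strongest peaks, 812 where only the strongest peaks, as many from each list as the shortest holds, decided presence, 183 with Sox17 scores of 100 or more, and 457 to 1735 where 1 library was left out (1735 without Sox17 A, 1314 without Sox17 B). In the order of midpoints within 100 bp, 1000 strongest peaks and scores of 100 or more, Sox17 F9+RA lay at 26.4%, 45.3% and 43.2% of members, Oct4 F9+RA at 37.6%, 65.1% and 65.0%, and Oct4 F9 at 20.2%, 34.3% and 35.5%. An interval over the site gave 59.4% for Oct4 F9+RA and 31.4% for Oct4 F9, presence by the strongest peaks 59.9% and 41.0%, equal length of the F9 lists 40.9% and 18.3%, and midpoints within 400 bp 60.8% for Oct4 F9+RA. Leaving out 1 library gave 17.3% to 38.2%, 27.2% to 55.1% and 16.0% to 33.2% for the 3 lists, lowest in each without Sox17 A. The cause of these shifts was not tested. Between lines no paired analysis was possible, because the Sox17 line has 1 Oct4 library and so 1 replicate letter in common with the others. The paired test above sets 2 classes of sites side by side within each library and compares no replicates.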

Other observations

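At 43 members, 9.62%, none of the 10 other lists had a peak within 200 bp, against 22 Sox17-shared sites (0.986%) and 10.7% of all union sites. Their Sox17 scores were low, with medians of 81.2 in replicate A and 67.7 in replicate B, against 123 and 96.7 over all members. An interval of 1 of the 10 lists still lay over 17 of the 43. The strongest, on chromosome 11 at 77991627 to 77994587, had Sox17 scores of 405 and 236, lay under intervals of 4 of the 10 lists and had another Sox midpoint 229 bp away. The next, on chromosome 14 at 106257984 to 106259711, had scores of 337 and 221 and lay under intervals of 9 of them. On chromosome 9, at 107298461 to 107299393, a region with scores of 224 and 97.8 lay under none, and its nearest other Sox midpoint was 2058 bp away. A region of chromosome 19 with scores of 198 and 73.1, from 7238424 to 7241709, lay under intervals of 6 of the lists. One of chromosome 1 with scores of 125 and 102, from 193750630 to 193752667, lay under intervals of 2.

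Sox17-alone sites were spread over all 19 autosomes and chromosome X. Of 427 neighbouring pairs, 0 lay less than 1000 bp apart, 3 less than 10000 bp and 21 less than 100000 bp. Chromosome 9 held 33 members, or 7.38%, against 4.80% of Sox17-shared sites, and chromosome 1 held 35, or 7.83%, against 11.5%. No test was made of these shares. By interval in place of midpoint, Oct4 of the Sox17 line lay over 85.2% of the members (81.6 to 88.4) and over 96.4% of Sox17-shared sites, and Oct4 of the other lines over 15.9% to 37.1% of the members and 79.7% to 94.8% of Sox17-shared sites.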
